A study of Homo sapiens with 39 samples.

Results

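The genes described are 45 nuclear receptors other than HNF4A, picked by name from a list of the receptor family and found as rows of the deposited tables, out of 45435 gene rows in all. Their mRNA was measured in HCT116 cells, a human colorectal cancer line, across 39 RNA-seq libraries in 13 groups of 3. The parental group was the Flp-In host line without a construct. Each of the other 12 groups was a stable line, given here the number of its isoform, that carries a GFP fusion of 1 of the 12 isoforms of HNF4A (hepatocyte nuclear factor 4 alpha) and makes it when doxycycline is added. All cells, parental included, had 48 h in doxycycline at 2.5 µg/ml before RNA was taken. Until then the growth medium held blasticidin S with zeocin for the parental group and blasticidin S with hygromycin B for the 12 lines, and these were withdrawn at induction. Each isoform is represented by 1 line, no group made GFP alone, and no line was measured without doxycycline, so the isoform, GFP, the earlier antibiotic and the deriving of a line cannot be told apart in a comparison with the parental cells. The labels do not say whether the 3 libraries of a group came from separate cultures, so the p-values measure the spread between these libraries, which may be technical.

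Nuclear receptors are transcription factors with a zinc-finger DNA-binding domain and a domain that can hold a small lipophilic ligand. Receptors for thyroid hormone, retinoic acid, fatty acids, oxysterols, bile acids and vitamin D bind DNA mostly as partners of a retinoid X receptor, steroid receptors bind as pairs of themselves, and several orphan receptors act without a known ligand. HNF4A is itself a nuclear receptor of gut and liver epithelium, and in liver it is known to sit in a network with other receptors, among them NR1I3, NR1I2, NR5A2, NR0B2 and the COUP receptors. The comparison of each line with the parental cells asks which of the family change in mRNA when an HNF4A isoform is present, and the comparison among the lines asks where isoforms differ.

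HNF4A mRNA had a parental mean of 31.5 TPM ± 0.589 (SD, n = 3), and its 36 values in the lines ran from 407 to 1109 TPM. TPM is a transcript level scaled for length and to a fixed sum in each library, so levels of different genes can be set side by side. All 5 epithelial markers were present in every library (EPCAM between 432.6 and 624.1 TPM), but their levels moved with the lines: in isoform 1, 4 of 5 passed higher and 1 lower, with a list median of 0.85 on the log2 scale against -0.11 over all genes. KRT18, CDH1 and KRT8 differed from the parental cells by up to 0.96, 0.89 and 0.85 on that scale in either direction, and CDX2 passed lower in 7 lines. Of 7 markers of other cell types, PTPRC, COL1A2 and CDH5 stayed at or below 0.296 TPM and ALB at or below 0.659 TPM, while COL1A1 was between 7.76 and 14.9, PECAM1 between 1.15 and 6.43 and GFAP between 0.508 and 1.56 TPM. PECAM1 was called higher in isoform 1, and the part of these markers in the receptor differences was not tested. In bulk RNA, fewer cells with a transcript and less of it per cell cannot be told apart.

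Of the 45 receptors, 28 were expressed (1 TPM or more on average across the 39 libraries), 12 were present at a trace and 5 were silent, meaning below 0.1 TPM in all 39 libraries. The silent receptors were RORB, a retinoid-related orphan receptor of brain and retina, RXRG, the retinoid X receptor of muscle and brain, NR2E1 (tailless, of neural stem cells), PGR (the progesterone receptor) and NR5A1 (steroidogenic factor of adrenal and gonad). Their highest library anywhere was 0.0918 TPM, for NR5A1. RORB and RXRG were each listed at 0 in 36 libraries, NR2E1 in 30, PGR in 23 and NR5A1 in only 3. None of the 45 was listed at 0 in all 39. NR5A1 averaged 0.0312 TPM over the 39 libraries, above the trace receptor NR0B1 at 0.0175 TPM, because the silent class rests on the highest library. In the authors' deposited table the mean normalised counts of these 5 receptors lay between 0.115 and 5.83. Counts per library were not used here, so the zeros carry no upper limit.

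The 12 trace receptors were RARB, RORA, NR1H4, NR1I2, NR2E3, ESR1, ESR2, ESRRB, ESRRG, NR4A3, NR0B1 and NR0B2. ESR1, the estrogen receptor alpha, was highest among them, with a parental mean of 0.849 TPM ± 0.0682 (SD, n = 3) and 1.10 TPM in its highest library. NR1H4, the bile acid receptor FXR, had a parental mean of 0.0459 TPM and line means between 0.0199 and 0.0794 TPM. NR1I2, the pregnane X receptor, had a parental mean of 0.0404 TPM and was highest in isoform 1, at 0.148 TPM. The atypical receptors without a DNA-binding domain were also near the floor: NR0B2 (SHP) had 0.111 TPM in the parental cells and a line maximum of 0.262 TPM in isoform 1, and NR0B1 (DAX1) was listed at 0 in 25 libraries. ESR2 and ESRRB had parental means of 0.531 and 0.687 TPM, and NR4A3 had 0.497 TPM. ESRRG, RORA, NR2E3 and RARB had parental means of 0.139, 0.0875, 0.0453 and 0.0617 TPM, and none of these 4 reached more than 0.206 TPM in any library.

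In the parental cells NR2F6, a COUP-related orphan receptor, was the most abundant, at 115 TPM ± 3.96 (SD, n = 3). ESRRA, the estrogen-related receptor of mitochondrial gene programs, followed at 52.9 TPM ± 1.33 (SD, n = 3), and NR5A2, the liver receptor homolog LRH-1, at 51.8 TPM ± 0.959 (SD, n = 3), a difference within their spread. RXRB was at 38.2 TPM ± 0.623 (SD, n = 3). NR2C1, RARG, RXRA, NR1H2, NR2F2 and THRA lay close together between 21 and 17.7 TPM, with neighbours in that order mostly within an SD of each other. The lowest of the expressed receptors was NR1I3, at 0.884 TPM ± 0.139 (SD, n = 3). It was the only expressed receptor with a parental mean below 1 TPM, so it entered the tests through the lines in which it is high. The 45 receptors summed to 547.6 TPM ± 2.62 (SD, n = 3) in the parental cells, to 671 TPM ± 9.03 in isoform 1 and to 623.2 TPM ± 10.7 in isoform 2. Each of the other 10 lines had a mean between 550.5 and 593.5 TPM.

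**Figure D1:**
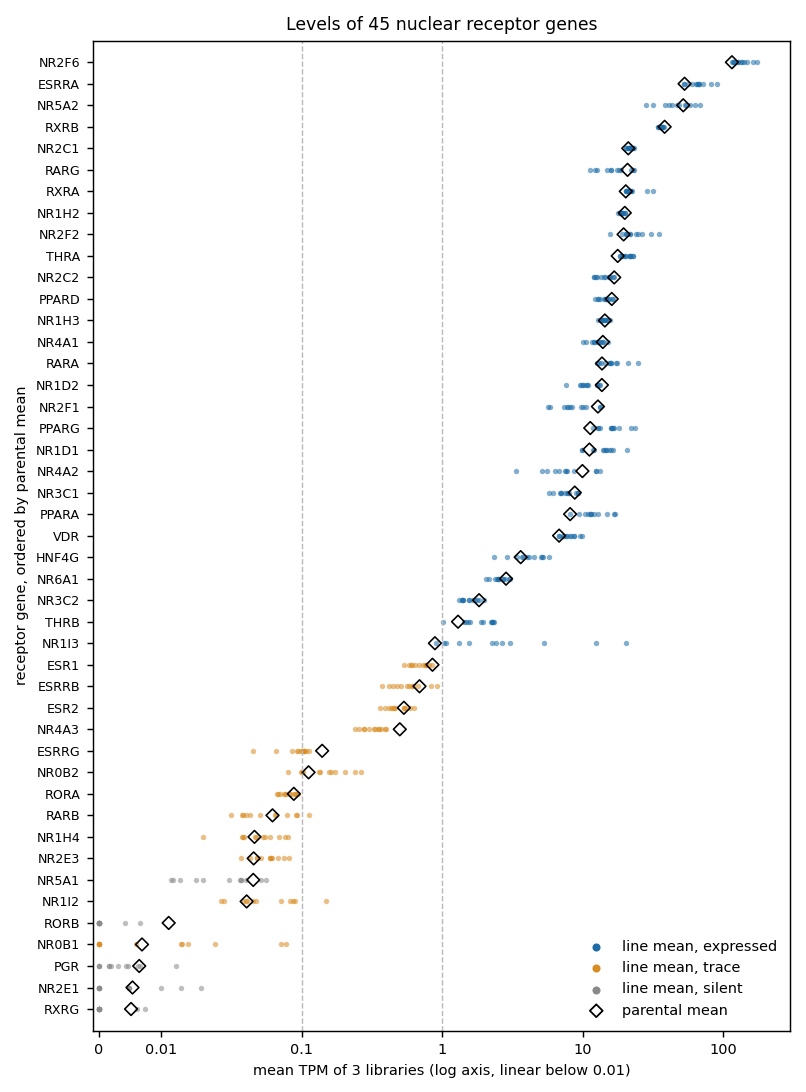
Levels of the 45 receptors in mean TPM of 3 libraries, on a log axis that is linear below 0.01; open diamonds are the parental cells, points the 12 lines, coloured by level class, and dashed lines stand at 0.1 and 1 TPM. Most points lie close to their diamond, and NR1I3 has the widest spread among the expressed receptors, from 0.9 to 20.2 TPM.

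Each line was compared with the parental cells by limma on log2(TPM + 1) values over 15003 genes, where a value passed at an adjusted p under 0.05 and was called when the log2 fold change was also at least 1 in size. This scale understates the change of genes at low TPM. Over the 28 receptors tested in 12 lines, 158 of 336 values passed, 94 higher and 64 lower, which is 47% of the receptor values against a background of 30.7% over all genes tested (higher 28% against 12.8%, lower 19% against 17.9%). Only 7 of the 336 values were called, 4 higher and 3 lower, 2.08% against a background of 1.51%. With the libraries scaled by median of ratios the calls were 9, of which 7 were higher. The called receptors were 3: NR1I3, NR2F1 and NR4A2 (10.7% of the 28, against 6.57% of all genes called in at least 1 line). All 4 higher calls before that scaling were of NR1I3, which entered the tests through the lines in which it is high. The called shares of the receptors therefore include a receptor admitted by its own rise. The shares carry no test of their own, and the 12 comparisons share the same 3 parental libraries.

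By line, receptors that passed were most frequent in isoforms 1 and 2, with 11 higher and 10 lower of 28 in each, where 58.5% and 55.3% of all genes passed. Isoform 7 had 9 higher and 9 lower (background 39.6%), isoform 8 had 10 and 4 (34.4%), isoform 10 had 12 and 6 (37.3%), and isoform 11 had 9 and 8 (38.5%). Isoform 3 had 8 higher and 5 lower (26.0%). In the remaining lines between 6 and 8 receptors passed: isoform 4 had 4 and 3 (16.3%), isoform 5 had 6 and 2 (14.8%), isoform 6 had 4 and 3 (10.1%), isoform 9 had 6 and 2 (22.7%) and isoform 12 had 4 and 2 (14.6%). With median-of-ratios scaling isoform 4 had 8 higher and 3 lower. The share of all genes called was 4.52% in isoform 1, where 1 receptor was called, and 3.73% in isoform 2, where 3 were. It was 0.807% in isoform 3 and 1.44% in isoform 10, where 1 and 2 receptors were called. In the other 8 lines, where 0 were called, it was 0.540%, 0.293% and 0.247% for isoforms 4, 5 and 6, then 2.08%, 1.41% and 0.827% for isoforms 7, 8 and 9, and 1.70% and 0.573% for isoforms 11 and 12. The median absolute log2 difference of the receptors was 0.45 in isoform 1 against 0.24 over all genes, and 0.082 in isoform 5 against 0.093. In isoform 1 the median of all genes lay at -0.11 on the log2 scale, and with median-of-ratios scaling at -0.0071, so the receptors that passed lower there were 10 before and 7 after that scaling.

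Across isoforms 1, 2, 7, 8, 10 and 11 a total of 8 receptors passed higher in all 6 lines, namely THRB, RARA, PPARA, PPARG, NR1D1, NR1I3, NR2F6 and ESRRA. Another 3, RARG, NR1D2 and NR2C2, passed lower in all 6. Of all genes tested, 14.9% passed the same way in these 6 lines. The set of lines was chosen with these values known, and the counts are a description.

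**Figure D2:**
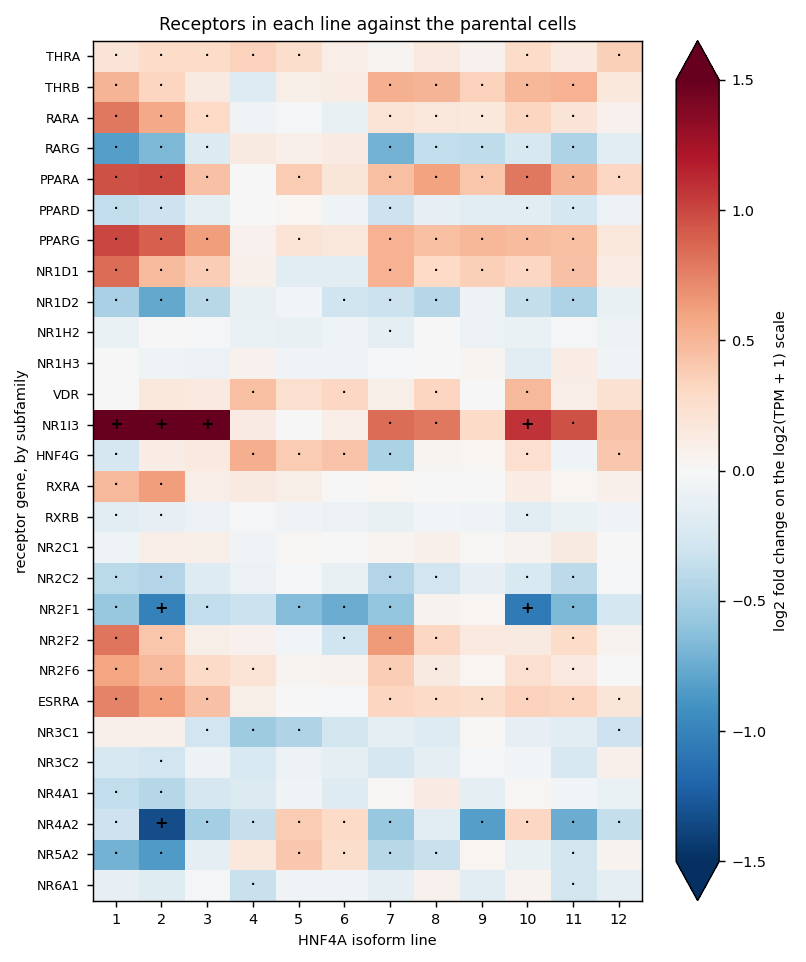
Log2 fold change of each expressed receptor (rows, by subfamily) in each isoform line (columns) against the parental cells, on the log2(TPM + 1) scale; a dot marks an adjusted p under 0.05 and a plus sign a log2 fold change of at least 1 as well, and the colour scale ends below the values of NR1I3 in isoforms 1, 2 and 3. The rows of NR1I3, PPARA, PPARG and ESRRA are red in most lines, and RARG, NR1D2 and NR2F1 are blue in most. RARG lies slightly above the parental cells in columns 4 to 6, and these columns are paler than columns 1 and 2.

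NR1I3, the constitutive androstane receptor that controls drug-metabolizing genes in liver, changed most of the family. Its 3 parental libraries held 0.904, 1.01 and 0.737 TPM. In isoform 1 its libraries held 21.7, 19.2 and 19.7 TPM, and in isoform 2 they held 12.1, 12.2 and 13.1 TPM. In isoform 3 they held 2.91, 6.33 and 6.65 TPM, the widest spread of any line. The low library of isoform 3 also had the lower HNF4A level, 406.9 TPM against 833.5 and 771.8 TPM, and without it the log2 fold change of NR1I3 was 1.99. All 9 of these libraries were above all parental ones, and isoforms 1, 2 and 3 did not overlap with each other. The rise in isoform 1 was 3.49 ± 0.165 (SE) on the log2 scale (limma, adjusted p = 3.18e-17), in isoform 2 it was 2.84 (adjusted p = 5.56e-15) and in isoform 3 it was 1.68 (adjusted p = 4.31e-09). Isoform 10 was also called, at 3.22, 2.72 and 3.08 TPM and a log2 fold change of 1.09 (limma, adjusted p = 4.63e-06). NR1I3 rose by less than that minimum in isoforms 7 (0.84), 8 (0.79) and 11 (0.96). In isoforms 4, 5 and 6 the line means were 1.06, 0.9 and 1.02 TPM and overlapped the parental libraries, and isoforms 9 and 12 did not pass, at 1.31 and 1.55 TPM. NR1I3 lies on chromosome 1 from 161229666 to 161238302 (GRCh38, GENCODE v29), and 20% of its exonic bases are shared with TOMM40L on the opposite strand. The library kit keeps strand, but whether the quantification used it is not given in the sources used here. TOMM40L was at 12.4 TPM ± 0.801 in the parental cells and 11.9 TPM ± 1.03 in isoform 1 (SD, n = 3 in each), with line means between 11.9 and 15.6 TPM.

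Upstream sequence is shown for the receptor that rose most (NR1I3), the receptor called lower in 2 lines (NR2F1), and a pair that moved in opposite directions in the same 6 lines (ESRRA up, RARG down). Windows come from RefSeq promoter entries on GRCh38.p14, 5′ to 3′ on the gene's strand, cut to the stretch without an annotated exon. NR1I3 is shown for chr1:161238303-161238453, minus strand, NR2F1 for chr5:93582972-93583221, plus strand, ESRRA for chr11:64305274-64305523, plus strand, and RARG for chr12:53232257-53232459, minus strand. Capitals mark a match to CAAAGTTCA, a spelling of the HNF4-type element.
NR1I3: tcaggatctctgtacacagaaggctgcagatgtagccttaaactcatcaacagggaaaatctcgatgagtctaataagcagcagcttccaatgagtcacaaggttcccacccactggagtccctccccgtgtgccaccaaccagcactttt
NR2F1: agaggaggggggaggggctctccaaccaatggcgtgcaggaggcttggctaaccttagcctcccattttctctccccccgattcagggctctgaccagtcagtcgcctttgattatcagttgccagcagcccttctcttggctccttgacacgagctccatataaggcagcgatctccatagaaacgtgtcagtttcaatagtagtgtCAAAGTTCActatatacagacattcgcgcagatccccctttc
ESRRA: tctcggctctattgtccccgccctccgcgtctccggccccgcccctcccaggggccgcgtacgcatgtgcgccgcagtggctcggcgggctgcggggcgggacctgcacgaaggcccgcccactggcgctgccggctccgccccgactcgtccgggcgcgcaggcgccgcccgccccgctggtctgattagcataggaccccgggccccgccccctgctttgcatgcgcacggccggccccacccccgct
RARG: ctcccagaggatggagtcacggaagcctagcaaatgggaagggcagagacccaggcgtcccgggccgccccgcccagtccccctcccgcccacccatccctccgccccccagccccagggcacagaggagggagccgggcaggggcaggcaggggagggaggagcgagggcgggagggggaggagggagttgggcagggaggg
The stretches differ in composition: the ESRRA stretch is 78.0% G and C with 35 CG dinucleotides, RARG 74.4% with 10, NR2F1 52.4% with 8 and NR1I3 49.7% with 2. The match in NR2F1 starts at position -42 from the RefSeq start and was the only one among the receptors. CAAAGTTCA was searched after values had been seen, and 0.296% of 35116 promoter windows of 300 bases hold it on either strand. CAAAGTCCA and CAAAGGTCA were searched on both strands of 94 windows of 40 receptors, and only ESR2, 38 bases after its start, held a match, against 0.792% of all windows. The shorter core AGGTCA, which is contained in CAAAGGTCA, was in 16 of the 94 windows, in 11 receptors, against 13.8% of all windows. A match describes letters in a window and shows no binding, and its absence says only that these letters are not there. Entries for NR0B2, NR4A2, HNF4G, VDR and NR2F6 were not used here.

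VDR, the vitamin D receptor, was at 6.77 TPM ± 0.788 (SD, n = 3) in the parental cells. It rose in 4 lines, by up to 0.48 on the log2 scale in isoform 10, where its libraries held 9.56, 9.79 and 10.1 TPM against 6.65, 7.61 and 6.05 TPM. With median-of-ratios scaling it passed higher in 7 lines. Of the 8 listed targets of vitamin D and xenobiotic receptors, 0 had a mean high enough to be tested, so this list gave no value beside the rise of NR1I3.

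The retinoic acid receptors moved in opposite directions. RARA held 13.7, 13.7 and 13.6 TPM in the parental libraries, 26.9, 24.3 and 22.3 TPM in isoform 1 and, in isoform 2, 20.1, 22.5 and 19.9 TPM. RARG held 20.8, 20.8 and 20.7 TPM in the parental libraries, 11.3, 11.1 and 11.5 TPM in isoform 1, 11.6, 12.7 and 13.8 TPM in isoform 2 and 11.8, 12.3 and 12.7 TPM in isoform 7. These groups all lay outside the parental range, and RARA, the lower of the pair in the parental cells, was the higher in every library of isoforms 1, 2, 7 and 11. RARG fell by 0.83 ± 0.060 (SE) in isoform 1 (limma, adjusted p = 7.16e-13), by 0.68 in isoform 2 and by 0.71 in isoform 7, and it passed lower in 8 lines in all. In isoforms 4, 5 and 6 RARG had means of 22.9, 22 and 22.8 TPM and did not pass; with median-of-ratios scaling it passed higher in 1 line. RARA rose by 0.79 ± 0.058 (SE) in isoform 1 (limma, adjusted p = 6.95e-13) and passed higher in 8 lines. RARA shares 17.9% of its exonic bases with opposite-strand genes, among them RARA-AS1, which was at 1.2 TPM in the parental cells and 3.86 TPM in isoform 1, and without known strand use the reads cannot be told apart. The thyroid hormone receptors THRA and THRB each passed higher in 7 lines and lower in 0, with line means between 18.2 and 22.9 TPM for THRA and between 1.01 and 2.32 TPM for THRB, against 17.7 and 1.29 TPM in the parental cells. RARB stayed at a trace, with 0.168 TPM in its highest library.

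The peroxisome proliferator-activated receptors, which sense fatty acids, split by member. PPARG, known for lipid storage and for differentiation of colon epithelium, held 11.7, 10.9 and 11.2 TPM in the parental libraries, 23.4, 24.3 and 22.9 TPM in isoform 1 and 21.8, 21 and 22.8 TPM in isoform 2. Its rise in isoform 1 was 1.00 ± 0.0658 (SE) on the log2 scale (limma, adjusted p = 8.51e-14), just under the minimum for a call at 0.998, and it passed higher in 9 lines. With median-of-ratios scaling its largest rise was 1.105, past that minimum. PPARA, of fatty acid oxidation, rose in 10 lines, the most of any receptor before median-of-ratios scaling. With that scaling ESRRA also passed higher in 10, and the largest rise of PPARA was 1.061. PPARA held 16.5, 18.7 and 15.7 TPM in isoform 2 against parental values of 7.7, 7.96 and 8.68 TPM, and the rise was 0.98 ± 0.108 (SE) (limma, adjusted p = 6.02e-09). PPARD passed lower in 5 lines and higher in 0, from 16.0 TPM in the parental cells to 12.2 TPM in isoform 1, a fall by 0.37 on the log2 scale.

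The heme receptors NR1D1 and NR1D2 (REV-ERB alpha and beta), repressors in the circadian clock, also moved apart. NR1D1 was at 11.1 TPM ± 0.662 in the parental cells and 20.7 TPM ± 1.18 in isoform 1 (SD, n = 3 in each), and it passed higher in 8 lines. NR1D2 was at 13.7 TPM ± 0.461 in the parental cells and 7.62 TPM ± 0.893 in isoform 2 (SD, n = 3 in each), a fall by 0.77 (limma, adjusted p = 4.59e-09), and it passed lower in 8 lines. NR1D1 overlaps THRA on the opposite strand over 9.49% of its exonic bases; THRA rose in isoform 1 by 0.19 on the log2 scale, against 0.84 for NR1D1. Of the 13 other clock genes tested from a list of 14, 0 were called in any line by limma. Over all genes, 6.57% were called in at least 1 line. In isoform 1, 2 of the clock genes passed higher and 5 lower, near the shares of 19.8% and 38.7% over all genes. BHLHE41 and BHLHE40, which repress clock genes, each passed lower in 6 lines, and BHLHE41 passed higher in isoform 9.

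The oxysterol receptors NR1H2 and NR1H3 (LXR beta and alpha) changed little. NR1H3 passed in 0 of 12 lines, with line means between 12.7 and 15.5 TPM against 14.3 TPM ± 1.02 (SD, n = 3), and NR1H2 passed only in isoform 7, lower by 0.15 on the log2 scale, a pass lost with median-of-ratios scaling. Neither passed the F test among the lines (limma, adjusted p = 0.144 and 0.146). Of 10 listed LXR targets 6 were tested, and LPCAT3, a phospholipid-remodelling enzyme, was the only one called, in isoform 1, where it rose by 1.08 on the log2 scale. LPCAT3 passed higher in 10 lines, while MYLIP passed lower in 5. In isoform 1, 2 of the 6 passed higher and 1 lower, where 19.8% and 38.7% of all genes did and 4.52% were called.

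HNF4G, the closest relative of HNF4A, moved in both directions. The parental libraries held 3.62, 3.69 and 3.51 TPM, isoform 4 held 5.39, 5.88 and 5.85 TPM, and isoform 7 held 1.95, 2.52 and 2.49 TPM. Both lines lay outside the parental range on opposite sides. HNF4G rose by 0.54 ± 0.090 (SE) in isoform 4 (limma, adjusted p = 6.1e-05) and fell by 0.48 in isoform 7 (adjusted p = 8.07e-05). It passed higher in isoforms 4, 5, 6, 10 and 12 and lower in isoforms 1 and 7; with median-of-ratios scaling it passed lower in 1 line. Reads of HNF4A and HNF4G come from related sequences, and how the quantification divided reads that fit both is not given in the sources used here.

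Of the retinoid X receptors, the shared partners of most ligand-bound members, RXRA rose in 2 lines. It held 19.5, 19.8 and 21.2 TPM in the parental libraries, 29.1, 26.7 and 30.5 TPM in isoform 1 and 29.8, 31.2 and 34.3 TPM in isoform 2, with no overlap. The rise was 0.49 in isoform 1 and 0.63 ± 0.0647 (SE) in isoform 2 (limma, adjusted p = 1.62e-09). In the other 10 lines its means were between 20.1 and 22.3 TPM and none passed; with median-of-ratios scaling RXRA passed higher in 4 lines in all. RXRB passed lower in 3 lines by at most 0.16, in 1 line with that scaling, and RXRG was silent.

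The COUP receptors NR2F1 and NR2F2, orphan receptors that bind the same type of element as HNF4A, moved apart. NR2F1 held 12.4, 11.8 and 14.2 TPM in the parental libraries, 5.38, 5.67 and 6.48 TPM in isoform 2 and 5.44, 4.75 and 6.83 TPM in isoform 10. These groups did not overlap. The fall was 1.01 ± 0.137 (SE) in isoform 2 (limma, log2 fold change -1.01, adjusted p = 2.88e-07) and slightly larger in isoform 10 (log2 fold change -1.06, adjusted p = 4.31e-07). Both lie at the minimum for a call: without parental replicate 3 they were -0.94 and -0.98, and with median-of-ratios scaling isoform 2 was at -0.93. NR2F1 passed lower in 8 lines and higher in 0, and it overlapped the parental libraries in isoforms 8 and 9, where isoform 9 held 11.2, 11.4 and 17.5 TPM.

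NR2F2 held 19.4, 19.9 and 19.1 TPM in the parental libraries, 35.5, 35.5 and 33.6 TPM in isoform 1, 31.7, 31.2 and 29.5 TPM in isoform 7 and 15.9, 16.5 and 14.4 TPM in isoform 6. Isoforms 1 and 7 were above the parental range and isoform 6 was below it. NR2F2 rose by 0.81 ± 0.0592 (SE) in isoform 1 (limma, adjusted p = 8.79e-13) and by 0.63 in isoform 7, and fell by 0.30 in isoform 6 (adjusted p = 0.000875). NR2F6 rose in 8 lines, to 174 TPM ± 3.82 (SD, n = 3) in isoform 1 from 115 TPM. Among the testicular receptors, NR2C2 passed lower in 6 lines, to 12.1 TPM in isoform 7 from 16.7 TPM, and NR2C1 passed in 0, or higher in 2 with median-of-ratios scaling. NR2C2 shares 11.4% of its exonic bases with opposite-strand genes, of which FGD5-AS1 was at 69.6 TPM in the parental cells and 52.5 TPM in isoform 1.

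ESRRA was the only estrogen-related receptor above a trace. It held 53.5, 53.9 and 51.4 TPM in the parental libraries, 91.8, 86.7 and 89.8 TPM in isoform 1, 81.2, 83.3 and 80.9 TPM in isoform 2 and 68.5, 75.1 and 72.2 TPM in isoform 3. Those 3 lines did not overlap each other or the parental cells. ESRRA rose by 0.75 ± 0.0418 (SE) in isoform 1 (limma, adjusted p = 2.03e-15), by 0.62 in isoform 2 and by 0.44 in isoform 3, and it passed higher in 9 lines. In the other 3, isoforms 4, 5 and 6, the means were 56.4, 52.6 and 52.5 TPM and overlapped the parental libraries. TRMT112, on the opposite strand over 9.37% of the exonic bases of ESRRA, was at 312 TPM in the parental cells and 277 TPM in isoform 1.

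Of the expressed steroid receptors, NR3C1 fell in some lines (log2 fold change as low as -0.53) and NR3C2 changed little. NR3C1, the glucocorticoid receptor, passed lower in 4 lines, most in isoform 4, where it was at 5.73 TPM against 8.75 TPM ± 1.27 (SD, n = 3), and it did not pass in isoforms 1 and 2. NR3C2, the mineralocorticoid receptor, passed lower in isoform 2, a pass lost with median-of-ratios scaling. Of 7 glucocorticoid targets tested from a list of 8, SGK1, a kinase of sodium transport, was called lower in isoforms 1 and 2 and passed lower in 9 lines. DUSP1, a phosphatase that is also an immediate early gene, was called higher in isoform 1. There, 3 of the 7 targets passed higher and 3 lower, against 19.8% and 38.7% of all genes. The called shares of all genes were 4.52% in isoform 1 and 3.73% in isoform 2.

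The NR4A receptors are orphan receptors induced as immediate early genes, and NR4A2 changed most among them. NR4A2 held 3.52, 3.43 and 3.06 TPM in isoform 2, the lowest of any line, against parental values of 9.87, 10.9 and 8.95 TPM. It was also low in isoform 9, at 4.96, 5.16 and 5.26 TPM. In isoform 5 it held 12.9, 14.8 and 11.9 TPM and in isoform 10 it held 12.4, 12.2 and 12.8 TPM, both above the parental range. NR4A2 fell by 1.33 ± 0.0915 (SE) in isoform 2 (limma, adjusted p = 3.04e-13), passed lower in 8 lines and passed higher in isoforms 5, 6 and 10. NR4A1 passed lower in isoforms 1 and 2, with a mean of 10.1 TPM in isoform 2 against 13.9 TPM ± 2.06 (SD, n = 3), and in 1 line with median-of-ratios scaling. NR4A3 was at a trace and was not tested: it held 0.505, 0.497 and 0.488 TPM in the parental cells and between 0.162 and 0.475 TPM in the 36 libraries of the lines. All 36 lay below all 3 parental libraries, as only this receptor did among the 33 with a mean of at least 0.1 TPM, while 1.25% of all such gene rows had their 36 line libraries on 1 side.

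NR5A2, the liver receptor homolog of gut crypts and bile acid genes, was higher and lower by line. It held 51.8, 52.7 and 50.8 TPM in the parental libraries, 29.2, 31.8 and 33.1 TPM in isoform 1 and 27, 28.9 and 28.9 TPM in isoform 2. In isoform 5 it held 67.7, 71.2 and 67 TPM. Isoforms 1 and 2 lay below the parental range and isoform 5 above it. NR5A2 fell by 0.85 ± 0.069 (SE) in isoform 2 (limma, adjusted p = 1.04e-11) and by 0.71 in isoform 1, and rose by 0.40 in isoform 5 (adjusted p = 0.000135) and by 0.27 in isoform 6. It also passed lower in isoforms 7, 8 and 11. NR6A1, the germ cell nuclear factor, was at 2.84 TPM in the parental cells and passed lower in 2 lines. Of 7 bile acid receptor targets 2 were tested, and in isoform 1 both passed lower, where 38.7% of all genes did. FGF19, the ileal hormone of bile acid feedback, was called lower in isoforms 7 and 9 and higher in isoform 4. Among all genes, 6.57% were called in at least 1 line. FABP6, the ileal bile acid carrier, passed lower in 8 lines.

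**Figure D3:**
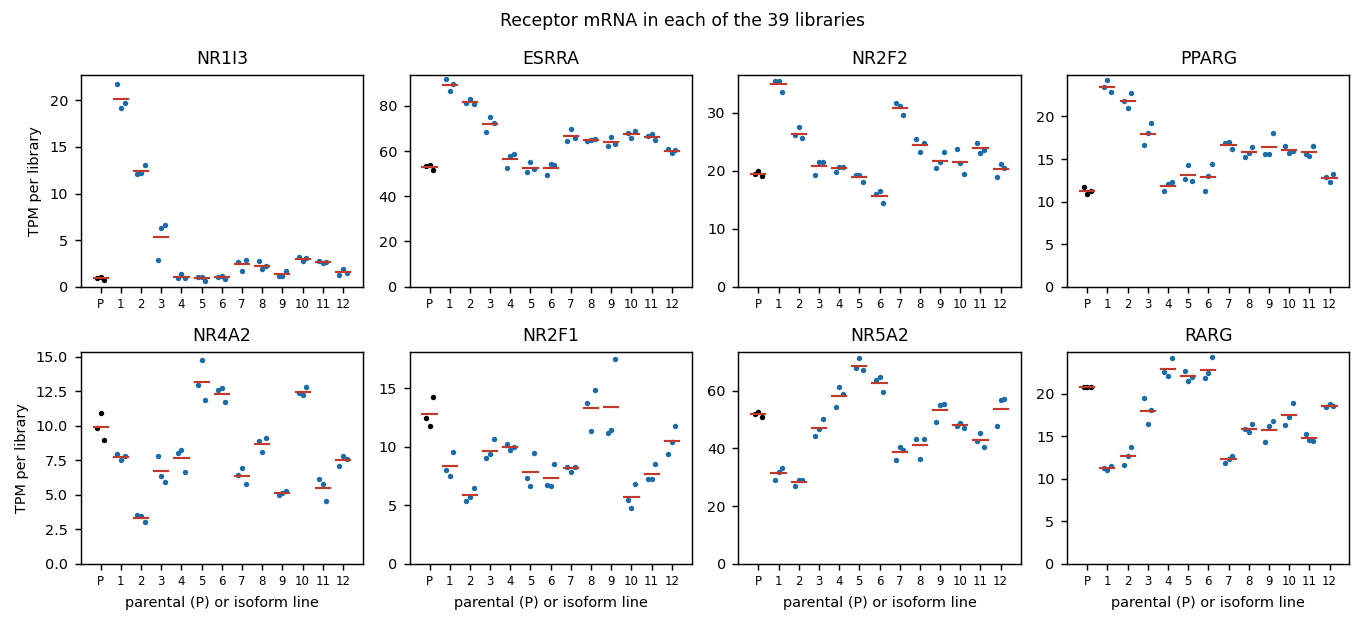
TPM of 8 receptors in each of the 39 libraries (points; black for the parental cells, P, and blue for isoform lines 1 to 12) with the mean of 3 as a red bar, on linear axes from 0. NR1I3 stands out in isoforms 1 and 2, ESRRA and PPARG have their highest means in isoform 1, and NR4A2, NR5A2 and RARG have means on both sides of the parental mean.

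Ratios of paralogs within a library, for pairs chosen after their values were seen, do not depend on how libraries are scaled. RARA over RARG was 0.658 ± 0.00198 (SD, n = 3) in the parental cells, 2.18 ± 0.222 in isoform 1 and 1.65 ± 0.182 in isoform 2. It was below the parental libraries in isoforms 4, 5 and 6, at 0.572, 0.606 and 0.551, and above them in the other 9 lines. PPARG over PPARD was 0.704 ± 0.0389 in the parental cells and 1.94 ± 0.11 in isoform 1, and PPARA over PPARD went from 0.505 to 1.36. NR1D1 over NR1D2 was 0.816 ± 0.0646 in the parental cells, 2.19 ± 0.129 in isoform 1 and 0.738 ± 0.0563 in isoform 5, the latter within the parental range. NR2F2 over NR2F1 was 1.53 ± 0.176 in the parental cells and 4.55 ± 0.521 in isoform 2. RXRA over RXRB was 0.529 ± 0.0178 in the parental cells and 0.905 ± 0.0216 in isoform 2. In each of these pairs the balance in isoforms 1 and 2 lay outside the parental range. The pairs were chosen with their values known and no ratios of other gene pairs were computed, so this is a description. A ratio shows unequal change, not which gene changed.

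The difference among the 12 lines was tested directly by limma's F test. It compares the 12 line means and uses the parental libraries only in the shared estimate of the spread. It passed for 23 of the 28 receptors (82.1%), against 77.4% of all genes. The 5 that did not pass were NR1H2, NR1H3, RXRB, NR2C1 and NR3C2. The lowest adjusted p belonged to NR1I3 (9.27e-18), followed by NR4A2 (1.11e-15), NR5A2 (1.44e-15), ESRRA (1.59e-15), RARG (1.6e-15) and NR2F2 (8.71e-15). NR1I3 entered this test through the lines in which it is high, so its place here and among the 23 is a description.

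For classes of isoforms the line mean was the unit, with 12 lines and 6 residual degrees of freedom; the labels number the isoforms, and their classes are those of the usual HNF4A naming. Isoforms 4 to 6, which carry an extra exon near the N-terminus, differed from isoforms 1 to 3 in 15 of 28 receptors, against a background of 34.6%. RARG, PPARD, NR1D2, NR2C2 and NR5A2 were higher in isoforms 4 to 6, and RARA, PPARA, PPARG, NR1D1, NR1I3, RXRA, NR2F2, NR2F6, ESRRA and NR3C1 were lower. The difference was -2.59 ± 0.264 (SE) on the log2 scale for NR1I3 (limma, adjusted p = 0.000574), -0.58 ± 0.0517 for ESRRA (adjusted p = 0.000284), 0.68 ± 0.127 for RARG (adjusted p = 0.00531) and 0.84 ± 0.128 for NR5A2 (adjusted p = 0.00272). Isoforms 7 to 9, transcribed from the other HNF4A promoter, differed from isoforms 1 to 3 in 7 receptors, against a background of 11.6%. NR4A1 was higher, and RARA, PPARG, NR1I3, RXRA, NR2F6 and ESRRA were lower, with NR1I3 at -2.03 ± 0.264 (SE) (limma, adjusted p = 0.00498). Without replicate 2 this count was 4. NR1I3, which is among the 15 and among the 7, entered the tests through the lines in which it is high. The forms with a shortened C-terminus (isoforms 3, 6, 9 and 12) differed from the other forms in 0 receptors by limma at adjusted p, against a background of 0.0133%, and 10 of 28 had an unadjusted p under 0.05. The lowest adjusted p was 0.102, for NR2F6. HNF4A mRNA ran from 407 to 1109 TPM over the 36 line libraries, and its part in these class differences was not tested.

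Genes downstream of the receptors were described from lists of known targets, which were chosen with earlier results of these data known. Of 8 retinoic acid targets tested from 9, 2 passed higher and 6 lower in isoform 1, with a list median of -0.67 on the log2 scale against -0.11 over all genes, of which 19.8% passed higher and 38.7% lower. DHRS3, a retinaldehyde reductase, was called higher in 9 lines, from 13.7 TPM ± 2.16 (SD, n = 3) in the parental cells to 119 TPM ± 10.6 in isoform 2. STRA6, the retinol transporter, passed lower in 10 lines and was called in 6, from 3.41 TPM to 0.568 TPM in isoform 1. CYP26A1, which degrades retinoic acid, also passed lower in 10 lines and was called in 4. DHRS3 moved against STRA6 and CYP26A1 in each of its 9 lines.

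Of 11 PPAR targets tested from 15, all 11 passed higher in isoform 1 and 8 in isoform 2, with list medians of 0.61 and 0.43 against -0.11 and -0.090 over all genes, of which 19.8% passed higher in isoform 1 and 19.7% in isoform 2. In isoform 6, 0 passed. CREB3L3, a liver and gut transcription factor of lipid genes, was called in 7 lines, from 0.21 TPM ± 0.0357 (SD, n = 3) in the parental cells to 37.9 TPM ± 4.87 in isoform 1. With a parental mean below 1 TPM, CREB3L3 entered the tests, and so the 11, through the lines in which it is high. ACAA2, a thiolase of fatty acid oxidation, was called in 4 lines, from 56 TPM to 160 TPM in isoform 2, and SLC25A20, the carnitine carrier of mitochondria, in 2, from 17 TPM to 49 TPM in isoform 1. Isoforms 1 and 2 had the highest list medians and also the highest means of PPARA and PPARG, and the part of either receptor in it was not tested.

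Immediate early genes were listed because the NR4A receptors belong to them. Of 10 tested from 11, 7 passed higher and 2 lower in isoform 1, and the same counts held in isoform 2. Over all genes, 19.8% passed higher and 38.7% lower in isoform 1, and 19.7% and 35.6% in isoform 2. JUN, a subunit of AP-1, was called higher in 7 lines, from 17.7 TPM ± 1.68 (SD, n = 3) to 96.6 TPM ± 14.5 in isoform 1. FOS was called higher in 3 lines and reached 17.4 TPM in isoform 1 from 5.12 TPM. In isoform 2, where NR4A2 was lowest, JUN rose by 2.05 and FOS by 1.12 on the log2 scale. FOSB and FOSL1, other AP-1 subunits named after their values were seen, passed lower in 4 and 8 lines, and FOSB was called lower in isoform 2 (log2 fold change -1.12). Of 20 coregulators tested from 22, 0 were called by limma in any line at the minimum fold. Over all genes, 6.57% were called in at least 1 line. In isoform 1, 5 coregulators passed higher and 5 lower, where 19.8% and 38.7% of all genes did. NCOA3, a coactivator, passed higher in 3 lines, and NCOA1, another, passed lower in 4.

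**Figure D4:**
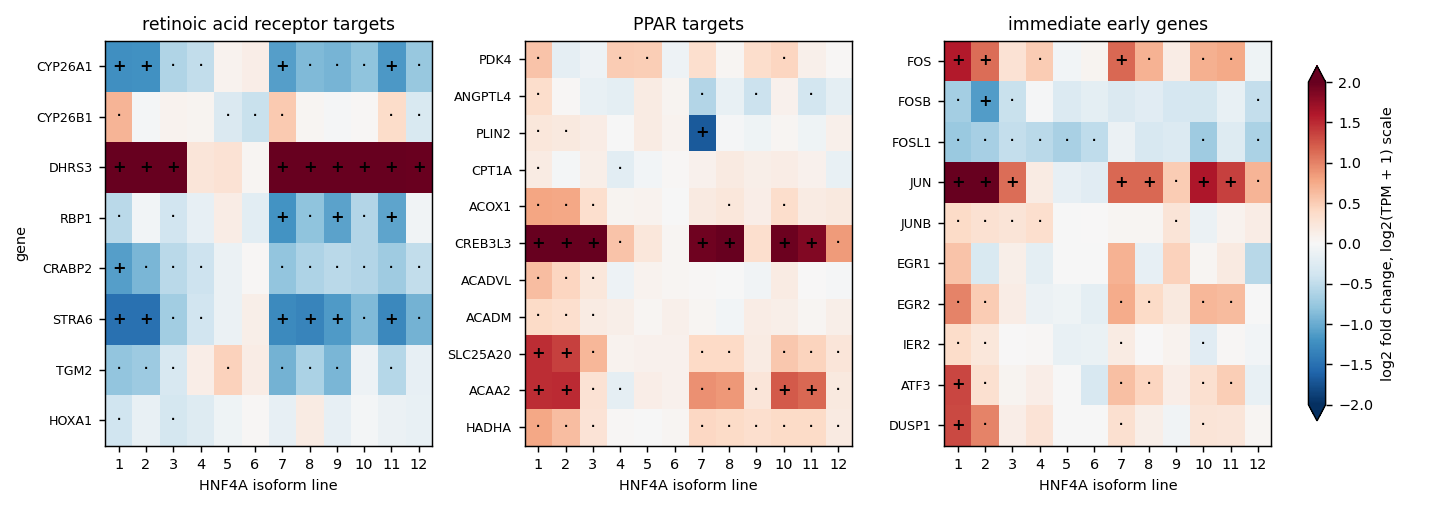
Log2 fold change of retinoic acid receptor targets, PPAR targets and immediate early genes (rows) in each isoform line (columns) against the parental cells, on the log2(TPM + 1) scale, with a dot for an adjusted p under 0.05 and a plus sign for a log2 fold change of at least 1 as well; the colour scale ends below the highest values of DHRS3, CREB3L3 and JUN. DHRS3, CREB3L3 and JUN are the darkest red rows, STRA6 and CYP26A1 are blue outside columns 5 and 6, and columns 5 and 6 are pale in all 3 panels.

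The authors' deposited table of comparisons gave the same direction at their adjusted p under 0.05 for 148 of the 158 values that passed here (93.7%), and the opposite direction for 0. Past a log2 fold change of 1 as well, the authors' deposited table held 14 receptor values, 12 higher and 2 lower, in 7 receptors. They include NR1I3 in isoforms 1, 2, 3, 7, 10 and 11, PPARA and PPARG in isoforms 1 and 2, NR1D1 in isoform 1, NR2F1 in isoform 10 and NR4A2 in isoform 2. For the 17 receptors too low to be tested here, the authors' deposited table had 4 that passed, in 8 values. NR1I2 in isoform 1 was the only one of them past a log2 fold change of 1, at 1.11 with an adjusted p of 0.00658 and a mean of 12.75 normalised counts in the authors' deposited table. NR4A3 passed lower there in isoforms 1, 2, 3 and 9 in the authors' deposited table.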

How the data were processed

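The deposited files are 13 tables of TPM, 1 per group, and those of the 12 lines add the authors' results against the parental group: mean normalised counts (signal), log2 fold change, a test score, and p-values raw and adjusted, per the file headers. Trimmomatic 0.36, FastQC 0.11.5, kallisto 0.44.0, DESeq2 1.22.2 and GRCh38.p12 are named in the submitters' processing notes, with no roles. Poly(A) RNA was made into strand-keeping libraries, per the labels' protocols. TPM summed to between 999972.6 and 999987.7 per library, 27884 to 30550 genes were above 0, and per table the mean normalised counts deposited by the authors added up to 50609338 to 56136330, which gives a mean depth per table; no counts per library were used, so values carry no interval for counting error.

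The 12 rows for HNF4A isoforms were summed, leaving 45435 rows. Values were tested as log2(TPM + 1) with limma 3.58.1 in R 4.3.3 (trend; 39 libraries, 13 groups, 26 residual degrees of freedom) for the 15003 genes that averaged 1 TPM or more, with Benjamini-Hochberg adjustment over all genes in each comparison, and the fit was tested on simulated data. Receptors named in full are those called in at least 1 line and the 6 with the smallest F-test p; PPARA, PPARG, RARA, HNF4G, RXRA, VDR and NR4A3 were added after their values were seen. From each other list at most 3 genes are named, those called in the most lines. The receptors and lists were chosen with earlier results of these data known. Alternatives were a pseudocount of 0.1, no filter, a filter at 5 TPM, another scaling, a minimum log2 fold change of 0.5, a replicate block and leaving out libraries.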

Additional observations from a re-analysis of the deposited data

Results flagged for a closer look

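Receptors are given here when they passed higher in some lines and lower in others and the lines themselves differed by limma's F test. NR4A2 passed higher in 3 lines and lower in 8, with an adjusted p of 1.11e-15 among the 12 lines. NR5A2 passed higher in 2 lines (isoforms 5 and 6) and lower in 5, with an adjusted p of 1.44e-15 by the same test. NR2F2 passed higher in 5 lines and lower in isoform 6, with an adjusted p of 8.71e-15. HNF4G passed higher in 5 lines and lower in isoforms 1 and 7, with an adjusted p of 2.04e-10. Each line's own difference from the parental cells uses the same 3 parental libraries. The F test among the lines uses them only in its estimate of the spread. The isoform, the line and the construct cannot be told apart, since each isoform is 1 line.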

How the results depend on the processing

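Across the alternatives no direction was reversed for NR1I3, NR2F1 or NR4A2, and their calls held except for NR2F1, which fell under the minimum fold in 5 of 51 alternatives in isoform 2 (as weak as -0.93) and in 2 of 51 in isoform 10 (as weak as -0.95). The 7 calls became 13 with a pseudocount of 0.1 TPM, 3 with a filter at 5 TPM, which removes NR1I3, and 50 with a minimum log2 fold change of 0.5. The 7 receptors between isoforms 7-9 and 1-3 became 3 with no filter, where more genes share the adjustment, and 4 without replicate 2. Leaving out libraries gave 6 to 9 calls, 116 to 161 passes, 21 to 25 receptors in the F test, 12 to 16 between isoforms 4-6 and 1-3, 4 to 7 between isoforms 7-9 and 1-3, and 0 for the C-terminal forms. The columns of isoforms 4 and 5 carry no replicate number, so the replicate block was fitted without them and gave 7 calls, 156 passes and 25 receptors in the F test, against 7, 139 and 23 for the same libraries with no block. Same-numbered libraries correlated in their deviations by -0.0469 to 0.187 over 30 pairs (median 0.045). Low correlations do not show that libraries of the same number are unlinked. In every group with replicate numbers NR2F1 was highest in replicate 3 (14.2 TPM in the parental cells). The main fit has no replicate term. Values near 0 TPM rest on few counts, which limits what can be said of the trace and silent receptors.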
